A study of Danio rerio with 32 samples.

Results

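Whole zebrafish larvae that lacked the repressor Bach1 and were also edited at both keap1 genes (group crkeap1a/b; Bach1 DKO, named compound mutants here) were compared with larvae edited at the keap1 genes alone (group crkeap1a/b). Each group had 4 pools of 10 larvae taken at 7 days post fertilization (dpf). Thus 8 of the 32 pools of the series entered the comparison, and 14108 genes of 16039 rows with a gene ID passed the filter on low counts and were tested. RNA was read with QuantSeq, a method that counts the 3′ ends of polyadenylated transcripts. Counts therefore do not scale with gene length, and levels are given as CPM. In CPM each count is divided by the library's total over the genes tested, after that total is multiplied by a scaling factor (TMM). In both groups embryos had been injected with Cas9 and guides against keap1a and keap1b, which gives mosaic animals. The compound mutants in addition come from a Bach1 DKO line, in which CRISPR mutations of bach1a and bach1b were combined by crossing, whereas crkeap1a/b larvae come from the WT background. The study's methods say that controls were clutch siblings, without saying which pools these were. According to the study, the Bach1 DKO line was made in fish with the reporter transgenes gstp1:EGFP and lf:NLS-mcherry. The study also first made crkeap1a/b larvae in a gstp1:EGFP line, and it imaged both groups on that background. Whether the profiled larvae of either group carried a reporter transgene is not stated. The labels name no clutch or batch, so the loss of Bach1 cannot be told apart from any other difference between the lines. Larvae of both lines without edited keap1 genes, 4 pools of Bach1 DKO and 4 pools of WT, give the same line difference and share no pool with the main comparison; whether they had a control injection is not stated.

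Keap1 is the adaptor that brings the transcription factor Nrf2 to a ubiquitin ligase, and loss of Keap1 lets Nrf2 accumulate and, with small Maf partners, bind antioxidant response elements. Bach1 pairs with the same small Maf proteins and occupies the same kind of element as a repressor, and heme binding releases it from DNA. In mammals the gene for heme oxygenase and those for ferritin chains are the best known Bach1 targets, and genes for glutathione, thioredoxin and quinone metabolism are the best known Nrf2 targets. Zebrafish carry paralog pairs of several of these factors (keap1a and keap1b, bach1a and bach1b), and nfe2l2a encodes the Nrf2 form mutated elsewhere in the series. The comparison asks what the loss of the repressor adds once the brake on the activator is already gone.

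Libraries of both groups held between 3654476 and 4712448 counts, of which 40.1 to 44.8% fell in rows without a gene ID and were not used. A floor of 3 counts in a library stood for 1.12 to 1.47 CPM, taken over all counts in rows with a gene ID and without the TMM factor. The first principal component of log2 CPM held 55.0% of the variance of the 8 pools and parted the groups, with compound mutants between -40.7 and -35.9 and crkeap1a/b pools between 30.7 and 50.0. The crkeap1a/b pools were spread along the second component (9.78%), where replicate 2 stood at -31.6 and replicate 4 at 31.4. Averaged over genes, the variance of log2 CPM between pools of a group corresponded to an SD of 0.326 in compound mutants and 0.366 in crkeap1a/b. Of 40 markers listed for 12 tissues, 29 had a row under that symbol and 28 of these were above the floor in all 8 pools, the lens gene mipa being the one below it. Nothing in the labels says that the pools came from separate clutches, so p-values measure the spread between pools of a group. That spread was estimated for each gene over all 32 pools of the series, not over these 8 alone. The groups edited at keap1a alone or keap1b alone had larger SDs, of 0.516 and 0.560.

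**Figure D1:**
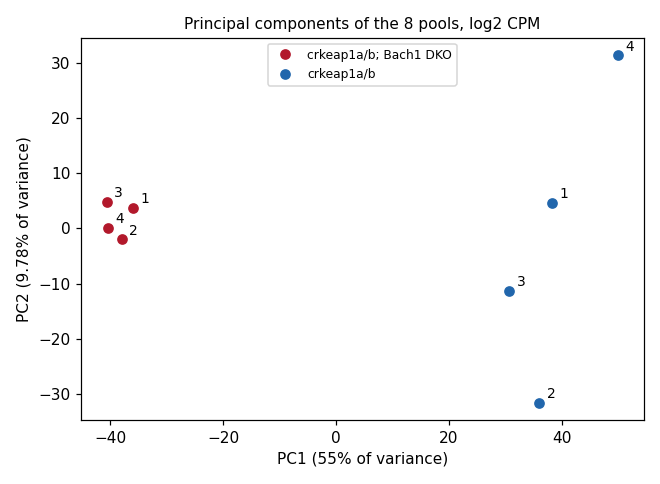
Positions of the 4 compound mutant pools (red) and the 4 crkeap1a/b pools (blue) on the first 2 principal components of log2 CPM over all genes tested, numbered by replicate, with the share of variance on each axis. The groups lie apart on the first component, and crkeap1a/b replicates 2 and 4 lie farthest apart on the second.

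The targeted and mutated genes were read first. The gene keap1a had 112, 112, 137 and 109 CPM in compound mutant pools, against 51.1, 43.7, 44.9 and 35.4 CPM in crkeap1a/b pools. Every compound mutant pool was above every crkeap1a/b pool (log2 fold change 1.42 ± 0.13 SE, adjusted p 3.56e-10). The gene keap1b overlapped between the groups, with 36.8, 48.4, 39.7 and 41.7 CPM in compound mutant pools, against 50, 31, 34.4 and 37.2 CPM in crkeap1a/b pools (log2 fold change 0.14 ± 0.21 SE, adjusted p 0.634). The gene bach1b, 1 of the 2 mutated repressor genes, had 265, 253, 256 and 241 CPM in compound mutant pools, against 29.4, 54.6, 49.5 and 36.9 CPM in crkeap1a/b pools (log2 fold change 2.61 ± 0.16 SE, adjusted p 2.1e-15), a separation of 6.11-fold. The gene bach1a had 31.1, 29.2, 15.3 and 24.8 CPM in compound mutant pools, against 16.5, 13.5, 17.6 and 16.8 CPM in crkeap1a/b pools. Replicate 3 of the compound mutants lay within the crkeap1a/b pools, and the difference (log2 fold change 0.60 ± 0.21 SE, adjusted p 0.0253) was lost without compound mutant replicate 1, compound mutant replicate 2 or crkeap1a/b replicate 2. A 3′ tag does not report a point mutation or a small deletion upstream of it, so these counts check neither the edits nor the loss of protein. The gene nfe2l2a, which encodes Nrf2, had 228, 230.2, 223 and 246 CPM in compound mutant pools, against 229, 249, 299 and 248 CPM in crkeap1a/b pools and was not called (log2 fold change -0.14 ± 0.12 SE, adjusted p 0.402). Among 11 tested genes for Keap1, Nrf2, Bach and small Maf factors, 4 were called higher and 0 lower, where 29.9% of all genes tested were called. The fourth of these was nfe2l3, which encodes an Nrf2-related factor and had 33.6, 31.7, 26.9 and 28.1 CPM in compound mutant pools, against 14.3, 16.4, 24.6 and 13.2 CPM in crkeap1a/b pools (log2 fold change 0.84 ± 0.18 SE, adjusted p 0.000656). Without editing, keap1a and bach1b were also called higher in Bach1 DKO than in WT (log2 fold changes 0.81 and 1.07). There bach1a and nfe2l2a were called lower (log2 fold changes -0.81 and -0.34), and keap1b and nfe2l3 were not called.

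Across all genes, 4225 were called (limma-voom, adjusted p under 0.05), 2243 higher and 1982 lower in compound mutants, which are 15.9% and 14.0% of those tested. The median absolute log2 fold change of called genes was 0.84, 1555 of them moved by at least 1 log2 unit (967 higher, 588 lower) and 306 by at least 2. In 4864 genes (34.5%) the 4 pools of one group lay all above or all below the 4 of the other, 2459 of them (17.4%) higher and 2405 (17.0%) lower in compound mutants. The median log2 fold change of all genes was 0.01 and the calls divided about evenly, but scaling by library totals alone gave 2561 higher and 1267 lower calls and moved that median to 0.105. Without crkeap1a/b replicate 4 there were 3406 calls, the fewest of any fit that left out 1 of the 8 pools.

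The 12 largest rises by fold included genes near the floor of 3 counts in crkeap1a/b larvae and genes well above it, among them hmox1a, fthl28 and fthl29, which are described with heme and iron genes. The parvalbumin gene pvalb7 had 24.7, 18.9, 14.2 and 9.09 CPM in compound mutants and 0 counts in every crkeap1a/b pool, at least 13.8-fold higher against a floor of 3 counts per library. The cathepsin S gene ctss2.1 had 117, 134, 112 and 129 CPM in compound mutant pools, against 5.88, 4.48, 4.91 and 1.43 CPM in crkeap1a/b pools (log2 fold change 4.98 ± 0.48 SE, adjusted p 9.52e-10). The gene star, which encodes the carrier that brings cholesterol into mitochondria for steroid synthesis, had 9.9, 16, 13.1 and 10.3 CPM in compound mutant pools, against 0.368, 0, 1.76 and 0.716 CPM in crkeap1a/b pools (log2 fold change 4.24 ± 0.66 SE). The salt-inducible kinase gene sik3 had 39.2, 36.9, 35.7 and 42.6 CPM in compound mutant pools, against 2.94, 4.48, 2.46 and 0.716 CPM in crkeap1a/b pools. The pools did not overlap in any of these genes. The gene cyb561a3b, which encodes a cytochrome b561 family protein, had 297, 289, 335 and 321 CPM in compound mutant pools, against 16.2, 32.1, 15.8 and 12.9 CPM in crkeap1a/b pools (log2 fold change 4.10 ± 0.18 SE, adjusted p 1.3e-19). The unnamed gene si:ch211-202h22.7 had 199, 172, 173 and 159 CPM in compound mutant pools, against 9.19, 17.2, 13 and 4.3 CPM in crkeap1a/b pools (log2 fold change 4.15 ± 0.25 SE). The other 3 were at lower levels. The gene nubp2, a cytosolic iron-sulfur cluster assembly factor, had 13.1, 13.1, 11.3 and 14.1 CPM in compound mutant pools, against 1.84, 0, 1.05 and 0.716 CPM in crkeap1a/b pools. The gene tmem14ca, whose mammalian counterpart carries a heme precursor into mitochondria, had 26.9, 28.9, 28.4 and 29.3 CPM in compound mutant pools, against 1.1, 2.24, 2.11 and 1.43 CPM in crkeap1a/b pools. The gene ndufab1a, a mitochondrial acyl carrier protein, had 6.36, 11.2, 12.4 and 9.92 CPM in compound mutant pools, against 0.368, 1.49, 1.05 and 0 CPM in crkeap1a/b pools. Without editing ndufab1a and nubp2 were also called higher in Bach1 DKO than in WT (log2 fold changes 3.54 and 1.90), and neither interaction was called. There ctss2.1 and cyb561a3b were not called (log2 fold changes 1.11 and 0.22).

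The largest falls were of another kind, since several genes had no more than 3 counts over all 4 compound mutant pools. Of 12 such genes with at least 5 CPM on average in crkeap1a/b larvae, pgd, which encodes 6-phosphogluconate dehydrogenase of the pentose phosphate pathway, was the most abundant. It had 0, 0, 0.364 and 0 CPM in compound mutant pools, against 70.6, 45.6, 43.5 and 70.5 CPM in crkeap1a/b pools. The summed counts were 1 in compound mutants and 635 in crkeap1a/b, a ratio of crkeap1a/b to compound mutant of 597 (95% exact interval 107 to 23612, counting error only). The gene zgc:158846 had 0.707, 0, 0 and 0 CPM in compound mutant pools, against 56.6, 25.4, 34.4 and 69.8 CPM in crkeap1a/b pools. The NLR family gene nlrc8 had 0 counts in all compound mutant pools, against 7.72, 8.6, 3.86 and 11.5 CPM in crkeap1a/b pools and was at least 6.09-fold lower. The gene si:ch73-119p20.1 was also at 0 in all 4 compound mutant pools and at 5.88, 8.22, 11.2 and 9.31 CPM in crkeap1a/b pools, at least 6.67-fold lower. The gene dennd4a, which encodes a Rab exchange factor, had 0, 0.321, 0 and 0 CPM in compound mutant pools, against 7.35, 13.1, 7.37 and 6.44 CPM in crkeap1a/b pools. Among the 12, 11 also had no more than 3 counts over the 4 Bach1 DKO pools without editing, 5 of these had at least 5 CPM on average in WT, and 9 of the 12 were called in the same direction in Bach1 DKO against WT, where 23.4% of all genes were called. The gene pvalb7, the only gene with no more than 3 counts in crkeap1a/b and at least 5 CPM in compound mutants, had 32.9, 39, 15.6 and 15.1 CPM in Bach1 DKO pools and 0 counts in all WT pools. For those 9 genes and pvalb7 the difference was present whether or not the keap1 genes were edited. The gene pgd was the only 1 of the 12 with a called interaction: it was at 0 in all 4 Bach1 DKO pools, and it had 0.368, 3.13, 0 and 1.81 CPM in WT pools. The epidermal keratin gene krt4 followed the line as well, with 1.77, 4.49, 2.91 and 5.79 CPM in compound mutant pools, against 412, 213, 298 and 329 CPM in crkeap1a/b pools and with 17.1, 9.64, 13.4 and 20.9 CPM in Bach1 DKO against 366, 148, 260.2 and 295 CPM in WT.

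**Figure D2:**
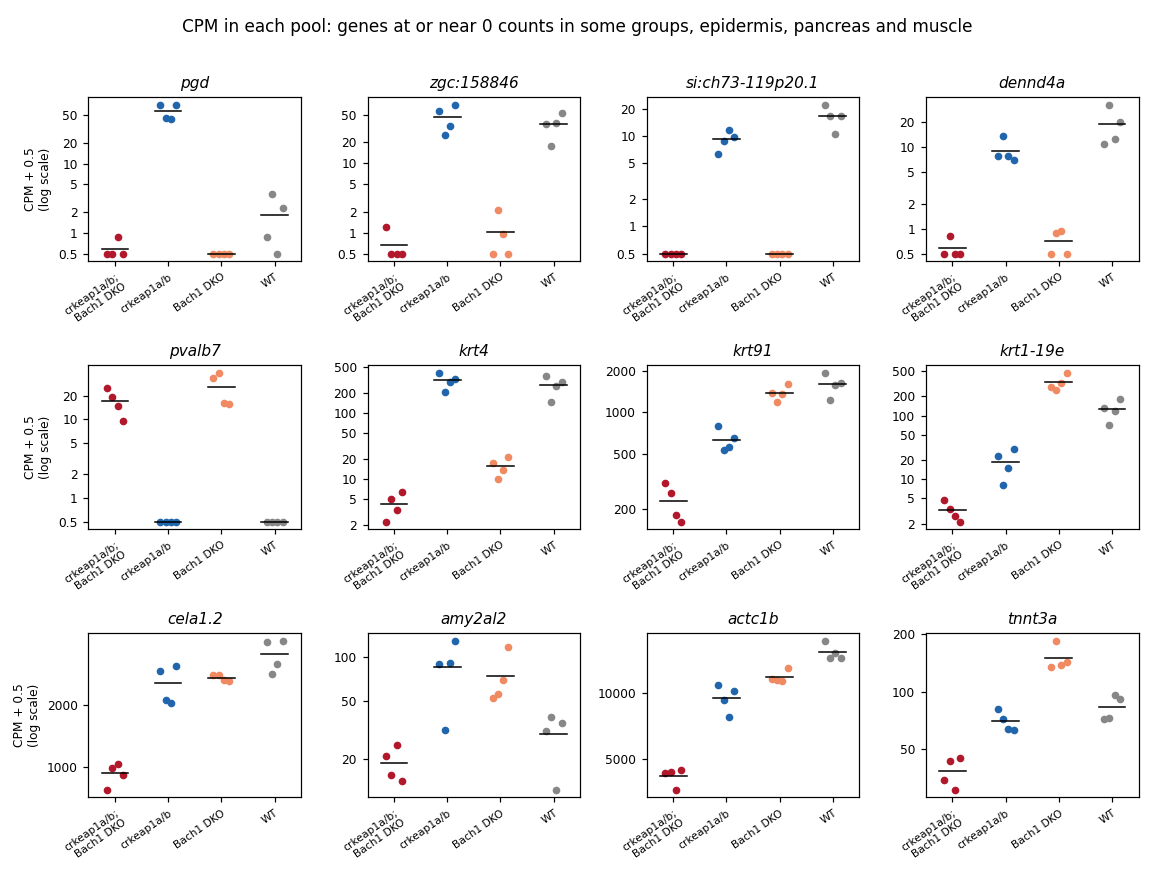
CPM + 0.5 on a log axis in each pool (points, in replicate order) with the group mean (bar) for 12 genes, in compound mutants, crkeap1a/b, Bach1 DKO and WT from left to right. The gene pgd is at or near 0 in both Bach1 groups and high only in crkeap1a/b. The genes zgc:158846, si:ch73-119p20.1, dennd4a and krt4 are low in both Bach1 groups, pvalb7 is at 0 in both groups of the WT background, and the muscle gene tnnt3a is lower in compound mutants but higher in Bach1 DKO than in WT.

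Because the lines differ, the same line difference without keap1 editing was set beside the main comparison. Bach1 DKO against WT gave 3304 calls (23.4% of genes tested), 1669 higher (11.8%) and 1635 lower (11.6%), or 1993 and 1083 with scaling by library totals. Called in both comparisons were 1753 genes, which is 41.5% of the calls with editing and 53.1% of the calls without, and 12.4% of genes tested. Of these, 816 were higher in both, 894 were lower in both and 43 went opposite ways. Genes called higher with editing had a median log2 fold change of 0.92 there and 0.49 without editing, and genes called lower had -0.76 and -0.49. These genes were chosen by their values with editing, so the medians do not compare the size of the line difference with and without editing. Across all genes the fold changes of the 2 comparisons had a Pearson r of 0.596, as a description of genes that are not independent. The clock-controlled transcription factor gene tefa is an example of a difference carried by the line, with 118, 152, 161 and 155 CPM in compound mutant pools, against 25.7, 28.8, 25.3 and 18.3 CPM in crkeap1a/b pools and 162, 157, 162 and 184 CPM in Bach1 DKO pools, against 27.6, 23.9, 39.3 and 36.9 CPM in WT pools. Genes near the mutated loci were counted apart. Of the 50 tested genes nearest to bach1a in gene order (25 on each side), 17 were called in the main comparison (34%), and 5 (10%) were called in the same direction in both. Around bach1b the counts were 18 (36%) and 8 (16%), beside 29.9% and 12.1% of all genes tested.

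Whether the line difference depended on keap1 editing was tested by the interaction, the difference with editing minus the difference without. It was called for 386 genes (2.74% of those tested), 208 positive (1.47%) and 178 negative (1.26%), with 2412 genes at an unadjusted p under 0.05. The interaction draws on all 16 pools, so its values are given beside those of the main comparison and do not support them. The count depended on the pools, with 210 calls without crkeap1a/b replicate 4, 213 without WT replicate 2, 247 without Bach1 DKO replicate 3 and 256 without Bach1 DKO replicate 1 or replicate 4. A fit on the 4 groups alone gave 1011.

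**Figure D3:**
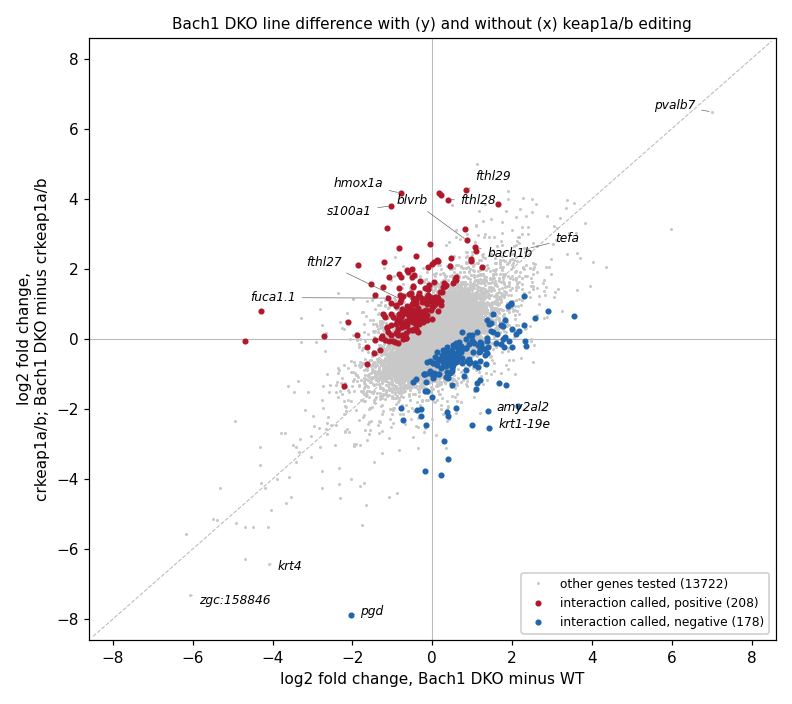
Log2 fold change of compound mutants minus crkeap1a/b (y axis) against that of Bach1 DKO minus WT (x axis) for 14108 genes, with the 208 positive (red) and 178 negative (blue) called interactions and the line of equal change (dashed). The genes hmox1a, s100a1, fthl28 and fthl29 lie far above the dashed line, while tefa and zgc:158846 lie near the dashed line. The gene krt4 was lower in both comparisons and lies below the dashed line (log2 fold changes -6.42 with editing and -4.10 without). Its interaction was not called.

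List counts from here on stand beside 15.9% of all genes called higher and 14.0% called lower in compound mutants. For Bach1 DKO against WT these shares are 11.8% and 11.6%. Of 5 heme breakdown genes 4 were called higher, 2 of them with a positive interaction. The gene hmox1a, which encodes the inducible heme oxygenase, had 112, 109, 108 and 133 CPM in compound mutant pools, against 5.51, 4.48, 9.83 and 6.08 CPM in crkeap1a/b pools (log2 fold change 4.16 ± 0.26 SE, adjusted p 5.75e-15), a difference of 17.9-fold with no overlap. Without editing it had 1.76, 5.62, 4.92 and 5.77 CPM in Bach1 DKO pools and 4.78, 9.77, 6.14 and 10.5 CPM in WT pools, which overlapped (log2 fold change -0.80, adjusted p 0.128). The interaction was 4.96 ± 0.46 SE, adjusted p 8.46e-09. The biliverdin reductase gene blvrb had 98.3, 94.6, 111 and 107 CPM in compound mutant pools, against 14.7, 12.3, 16.1 and 14.7 CPM in crkeap1a/b pools (log2 fold change 2.81 ± 0.18 SE, adjusted p 1.72e-14), and its log2 fold change was 0.87 without editing (interaction 1.95 ± 0.32 SE, adjusted p 0.000283). The gene blvra, which encodes the other biliverdin reductase, and hmox2a, a constitutive heme oxygenase gene, were also higher without editing. The gene hmox2a had a log2 fold change of 1.21 with editing and 1.24 without, blvra 1.34 and 1.68, and neither interaction was called. The gene hmox2b was lower (log2 fold change -0.51, adjusted p 0.0379), a call lost in 6 of the 8 fits that left out a pool and with edgeR and DESeq2. It was the only member called lower.

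Ferritin chains store iron and are classical targets of both factors in mammals. Of 7 tested ferritin chain genes, 5 were called higher and none lower in compound mutants (median log2 fold change 1.13, against 0.01 over all genes). The gene fthl28 had 2751, 3206, 3166 and 3226 CPM in compound mutant pools, against 193, 245, 193 and 160.0 CPM in crkeap1a/b pools (log2 fold change 3.98 ± 0.17 SE, adjusted p 5.94e-20). The gene fthl29 had 849, 1021, 968 and 1114 CPM in compound mutant pools, against 56.2, 39.2, 54.4 and 56.2 CPM in crkeap1a/b pools (log2 fold change 4.26 ± 0.16 SE, adjusted p 9.72e-22). The gene fthl31 had 1673, 1777, 1584 and 1748 CPM in compound mutant pools, against 360.2, 412, 323 and 325 CPM in crkeap1a/b pools (log2 fold change 2.26 ± 0.23 SE, adjusted p 1.69e-09). Without editing all 3 were low in both lines: fthl28 had 9.22, 11.6, 16.1 and 16 CPM in Bach1 DKO pools and 9.56, 15.2, 7.22 and 8.69 CPM in WT pools. The gene fthl27, the ferritin gene with the most counts, had 4292, 4286, 4454 and 4372 CPM in compound mutant pools, against 2114, 1772, 1938 and 2148 CPM in crkeap1a/b pools (log2 fold change 1.13 ± 0.17 SE, adjusted p 3.71e-06). Bach1 DKO pools had less of it than WT pools, with 576, 512, 617 and 510.2 against 1039.9, 1149, 784 and 876 CPM (log2 fold change -0.79, adjusted p 0.000399). Interactions were called for these 4 genes and lay between 1.92 and 3.58 on the log2 scale. The summed level of the list was 11452 to 12617 CPM in compound mutants and 4533 to 5024 CPM in crkeap1a/b, and 1158 to 1289.6 CPM in Bach1 DKO and 1488 to 2050.0 CPM in WT. These genes are close copies of each other, and how reads that match several copies were counted is not given in the sources used here, so the share of each gene is uncertain.

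Iron uptake and heme synthesis moved the same way in part. The porphyrin transporter gene abcb6a had 156, 146, 148 and 134 CPM in compound mutant pools, against 24.6, 28.8, 24.9 and 24 CPM in crkeap1a/b pools (log2 fold change 2.51 ± 0.16 SE, adjusted p 2.74e-14). The genes tfr1a and tfr1b encode transferrin receptors, and tfr1a had 39.2, 48.4, 42.6 and 36 CPM in compound mutant pools, against 12.9, 12.3, 10.5 and 7.16 CPM in crkeap1a/b pools. The gene tfr1b had 83.1, 82.4, 88.8 and 83.5 CPM in compound mutant pools, against 31.2, 38.9, 26.3 and 19.3 CPM in crkeap1a/b pools. The ferric reductase gene cybrd1 had 42.4, 37.2, 32 and 30.6 CPM in compound mutant pools, against 19.1, 16.4, 20.4 and 18.6 CPM in crkeap1a/b pools, also without overlap. In all, 6 of 19 tested genes of iron and heme transport were called higher and none lower (median log2 fold change 0.25). The other 13 were not called, and 29.9% of all genes tested were called in either direction. Of the 8 heme synthesis genes tested 3 were called higher and none lower (median 0.68), but only hmbsb, a hydroxymethylbilane synthase gene, was still called without compound mutant replicate 3, crkeap1a/b replicate 2 or crkeap1a/b replicate 4. It had 25.1, 28.2, 25.5 and 19.4 CPM in compound mutant pools, against 5.88, 6.35, 6.67 and 4.3 CPM in crkeap1a/b pools (log2 fold change 2.07 ± 0.24 SE, adjusted p 3.61e-08; interaction 2.18 ± 0.42 SE). Red cells are where most heme is made, and 5 of 10 globin and red cell genes were called higher (median 0.69), which became 3 without compound mutant replicate 3 or crkeap1a/b replicate 4. The red cell anion exchanger gene slc4a1a had 50.5, 61.6, 52.8 and 60.3 CPM in compound mutant pools, against 19.1, 16.8, 22.5 and 14 CPM in crkeap1a/b pools (log2 fold change 1.64 ± 0.23 SE, adjusted p 1.06e-06). The embryonic alpha globin gene hbae1.1 had 240.3, 357, 271 and 281 CPM in compound mutant pools, against 147, 166, 149 and 83.4 CPM in crkeap1a/b pools. The erythroid transcription factor gene klf1 had 6.36, 10.6, 11.6 and 9.09 CPM in compound mutant pools, against 1.1, 2.99, 1.76 and 1.07 CPM in crkeap1a/b pools. Without editing the red cell list had 0 genes higher and 3 lower in Bach1 DKO than in WT. Its summed level was 1794 to 2412 CPM in compound mutants and 1047 to 1622 CPM in crkeap1a/b, with no member at 0 in both groups. Without editing it was 1027 to 1385 CPM in Bach1 DKO and 1762 to 2328 CPM in WT, so the WT range overlapped that of compound mutants. The part of red cell number in the heme and iron results was not tested. In RNA from whole larvae, a change in the number of cells of a type and a change in RNA per cell cannot be told apart.

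**Figure D4:**
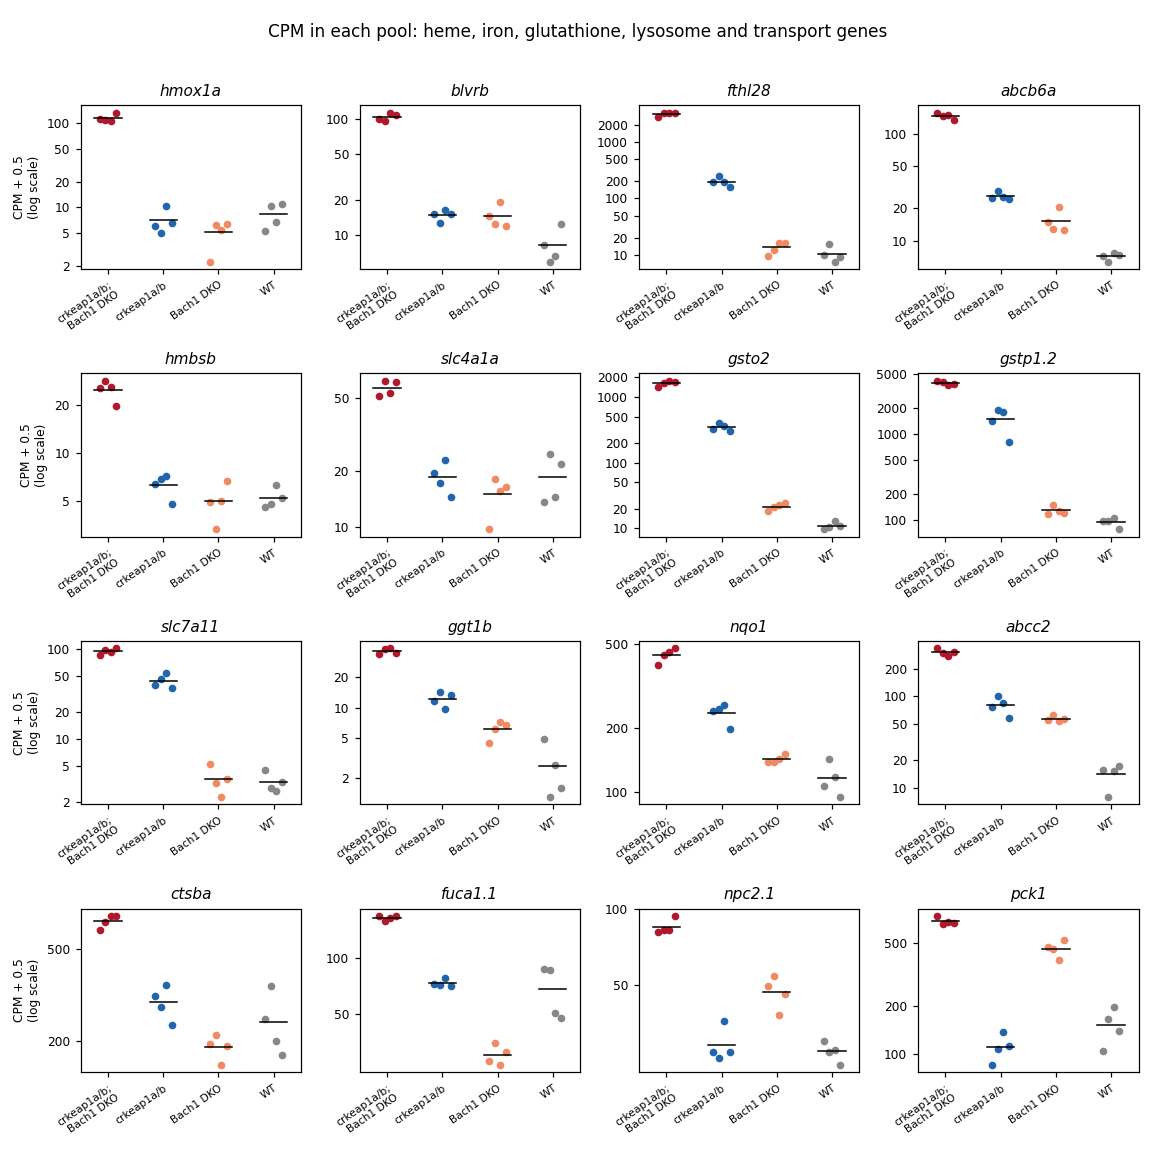
CPM + 0.5 on a log axis in each pool (points, in replicate order) with the group mean (bar) for 16 genes, in compound mutants, crkeap1a/b, Bach1 DKO and WT from left to right. For each gene all 4 compound mutant pools lie above all 4 crkeap1a/b pools; hmox1a, hmbsb, slc4a1a and ctsba show no such step between Bach1 DKO and WT, and abcc2, npc2.1 and pck1 show it in both.

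Among genes of glutathione supply, 8 of 16 tested were called higher and 3 lower (median log2 fold change 0.54), against 1 higher and 2 lower in Bach1 DKO than in WT. The cystine transporter gene slc7a11 had 85.5, 96.8, 92.8 and 102 CPM in compound mutant pools, against 39.7, 46, 54.1 and 36.9 CPM in crkeap1a/b pools (2.15-fold higher, adjusted p 2.73e-06). Without editing there were 4.83, 2.81, 1.79 and 3.11 CPM in Bach1 DKO and 4.04, 2.35, 2.17 and 2.9 CPM in WT. The gene gclm, the modifier subunit of glutamate-cysteine ligase, had 42.8, 50, 52.8 and 35.5 CPM in compound mutant pools, against 26.1, 23.5, 21.1 and 24.7 CPM in crkeap1a/b pools. The gamma-glutamyltransferase gene ggt1b had 33.6, 38.2, 38.6 and 34.3 CPM in compound mutant pools, against 11, 13.8, 9.13 and 12.9 CPM in crkeap1a/b pools (log2 fold change 1.63 ± 0.19 SE, adjusted p 6.24e-08). The gene hagh, a glyoxalase of glutathione recycling, had 78.1, 57.4, 60.4 and 55 CPM in compound mutant pools, against 33.5, 36.6, 39.3 and 22.2 CPM in crkeap1a/b pools. The pools of these 4 genes did not overlap. The gene slc3a2b, which encodes the heavy chain that partners amino acid transporters such as the cystine carrier, was lower (169, 166, 164 and 187 CPM in compound mutant pools, against 253, 271, 258 and 323 CPM in crkeap1a/b pools). No interaction was called in this list.

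Glutathione S-transferases conjugate electrophiles to glutathione, and 8 of 16 tested were called higher and 2 lower (median 0.74). The omega class gene gsto2 had 1416, 1606, 1769.7 and 1674 CPM in compound mutant pools, against 329, 405, 358 and 301 CPM in crkeap1a/b pools (log2 fold change 2.22 ± 0.16 SE, adjusted p 1.36e-13) and the only called interaction of the list (1.24 ± 0.29 SE, adjusted p 0.0146). The pi class gene gstp1.2 had 4182, 4005, 3692 and 3823 CPM in compound mutant pools, against 1431, 1918, 1814 and 802 CPM in crkeap1a/b pools (log2 fold change 1.47 ± 0.25 SE, adjusted p 2.88e-05). Its neighbour gstp1.1 is a near copy, so the counts of each are uncertain. Of the pair that fell, gstm.1, a mu class gene, had 11, 11.5, 5.1 and 7.44 CPM in compound mutant pools, against 19.5, 25, 23.2 and 20 CPM in crkeap1a/b pools. The gene gstz1, which acts in tyrosine breakdown, had 51.6, 44.9, 40.8 and 45.1 CPM in compound mutant pools, against 94.5, 77.4, 79.7 and 94.1 CPM in crkeap1a/b pools. Peroxiredoxins, thioredoxins and their reductases were higher in 7 of 10 genes and lower in none (median 0.63). The thioredoxin reductase gene txnrd3 had 1288, 1226, 1303 and 1217 CPM in compound mutant pools, against 837, 764, 866 and 696 CPM in crkeap1a/b pools (log2 fold change 0.67 ± 0.17 SE, adjusted p 0.00309). The peroxiredoxin gene prdx6 had 73.5, 74.4, 89.9 and 74.8 CPM in compound mutant pools, against 43.4, 43.7, 40 and 40.4 CPM in crkeap1a/b pools. The gene txnipa, which encodes a thioredoxin-binding protein, had 187, 221, 194 and 217 CPM in compound mutant pools, against 102, 91.2, 119 and 63 CPM in crkeap1a/b pools.

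The gene nqo1, the quinone reductase gene that often serves as a readout of Nrf2, had 397, 444, 458 and 479 CPM in compound mutant pools, against 240.4, 247, 256 and 199 CPM in crkeap1a/b pools (log2 fold change 0.92 ± 0.15 SE, adjusted p 1.12e-05). Of 8 quinone, carbonyl and enone reductase genes 4 were called higher and none lower, and 2 without compound mutant replicate 1. Catalase (cat) had 101, 109, 77.9 and 98.4 CPM in compound mutant pools, against 56.6, 45.2, 59 and 48.3 CPM in crkeap1a/b pools. The gene sod1, cytosolic superoxide dismutase, had 267, 259, 262 and 264 CPM in compound mutant pools, against 183, 168, 151 and 135 CPM in crkeap1a/b pools. The glutathione peroxidase gene gpx9 was lower (40.6, 24.4, 35.3 and 43.4 CPM in compound mutant pools, against 63.2, 60.5, 59.3 and 69.8 CPM in crkeap1a/b pools). No other of the 9 genes of that list was called. The genes cat and sod1 were also higher in Bach1 DKO than in WT, by 1.07 and 0.66 on the log2 scale. Of 7 genes that supply NADPH, me2, a malic enzyme gene (log2 fold change 0.75), and tktb, a transketolase gene (log2 fold change 0.47), were called higher and pgd lower; the call of tktb was lost without compound mutant replicate 3 or 4 or crkeap1a/b replicate 4. Multidrug resistance associated transporters export conjugates from cells, and 5 of 9 were called higher in compound mutants (median 0.56) and 5 in Bach1 DKO against WT (median 0.86). The gene abcc2 had 334, 294, 273 and 301 CPM in compound mutant pools, against 75, 99.4, 84.6 and 58 CPM in crkeap1a/b pools (log2 fold change 1.95 ± 0.19 SE, adjusted p 6.31e-10), and 54, 61.4, 53.6 and 56.4 CPM in Bach1 DKO against 15.1, 7.43, 14.8 and 17 CPM in WT. The genes abcc1 and abcc3 had log2 fold changes of 0.94 and 1.09 in the main comparison. Cytochrome P450 genes of families 1 to 4 (7 higher and 5 lower of 28) and glucuronosyl- and sulfotransferases (4 and 3 of 21) were called in both directions. The second of these lists had 3 to 4 calls in all without compound mutant replicate 1 or 3 or crkeap1a/b replicate 2 or 4.

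Lysosomal genes were called mostly higher. Of 56 tested genes for lysosomal hydrolases and membrane proteins, 24 were called higher and 2 lower (median 0.45), against 6 higher and 7 lower in Bach1 DKO than in WT (median -0.21). Cathepsins, the proteases of this compartment, were higher in 8 of 14 and lower in none (median 0.75). The intralysosomal cholesterol carrier gene npc2.1 had 80.9, 82.4, 81.9 and 93.4 CPM in compound mutant pools, against 26.5, 25, 35.5 and 26.5 CPM in crkeap1a/b pools (log2 fold change 1.58 ± 0.21 SE, adjusted p 8.63e-07). The gene npc1, which encodes its membrane partner, had 36.1, 33.3, 39.3 and 43.8 CPM in compound mutant pools, against 13.2, 17.6, 15.4 and 8.23 CPM in crkeap1a/b pools. The cathepsin B gene ctsba had 606, 659, 695 and 698 CPM in compound mutant pools, against 314, 282, 349 and 235 CPM in crkeap1a/b pools (log2 fold change 1.18 ± 0.25 SE, adjusted p 0.000508; interaction 1.50 ± 0.35 SE). The protective protein/cathepsin A gene ctsa had 74.2, 80.8, 94.6 and 78.9 CPM in compound mutant pools, against 46.3, 28, 31.6 and 24 CPM in crkeap1a/b pools. The gene ctsk, cathepsin K, had 24.7, 15.1, 22.9 and 19.8 CPM in compound mutant pools, against 6.62, 4.11, 7.72 and 6.08 CPM in crkeap1a/b pools. The gene scarb2b, which encodes a membrane protein that carries glucocerebrosidase to lysosomes, had 32.2, 32.4, 36.4 and 37.6 CPM in compound mutant pools, against 12.1, 9.72, 16.1 and 10.7 CPM in crkeap1a/b pools. The alpha-fucosidase gene fuca1.1 was higher with editing and lower without. It had 166, 158, 163 and 167 CPM in compound mutant pools, against 72.4, 71.4, 77.6 and 70.5 CPM in crkeap1a/b pools (log2 fold change 1.16 ± 0.17 SE, adjusted p 2.01e-06), but 27.7, 34.5, 26.4 and 31.1 CPM in Bach1 DKO against 86.4, 86, 50.2 and 47.4 CPM in WT (log2 fold change -1.11, adjusted p 8.04e-05), with an interaction of 2.28 ± 0.26 SE, adjusted p 5.11e-07. The lysosomal membrane glycoprotein gene lamp1a was lower in compound mutants (370.4, 340.2, 415 and 394 CPM in compound mutant pools, against 717, 646, 596 and 557 CPM in crkeap1a/b pools). It was also lower without editing, with 248, 221, 214 and 196 CPM in Bach1 DKO against 846, 907, 512 and 528 CPM in WT. The fall was smaller with editing (log2 fold change -0.72, against -1.62 without), so its interaction was positive (0.90).

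Vacuolar ATPase subunits, which acidify the compartment, were called in both directions (4 higher and 3 lower of 19, median 0.06). Of all genes, 15.9% were called higher and 14.0% lower. Among MiT/TFE factors and their regulators, which include the transcription factors known for lysosomal genes, only tfe3a was called of 8 (log2 fold change 0.58, adjusted p 0.0178). That call was lost without compound mutant replicate 3 or crkeap1a/b replicate 4. Of 37 autophagy genes 10 were called higher and 3 lower. The gene map1lc3a had 96.5 to 108 CPM in compound mutant pools, against 36.1 to 58.6 CPM in crkeap1a/b pools. The gene gabarapa had 51.3, 58.7, 59.7 and 61.2 CPM in compound mutant pools, against 26.8, 30.6, 27.7 and 15.7 CPM in crkeap1a/b pools. Both encode ubiquitin-like proteins of the autophagosome membrane and were also higher in Bach1 DKO than in WT (log2 fold changes 1.07 and 0.67). Of 37 proteasome subunits 12 were called higher and 3 lower (median 0.25), against 2 higher and 10 lower without editing (median -0.24). The gene psmc5, a base ATPase subunit, had 78.1, 99.7, 95.7 and 88 CPM in compound mutant pools, against 40.8, 40.4, 43.9 and 27.6 CPM in crkeap1a/b pools. The gene psma2a, a core subunit, had 76.3, 86.6, 99 and 97.1 CPM in compound mutant pools, against 40.8, 42.6, 41.4 and 33.6 CPM in crkeap1a/b pools. The lid subunit gene psmd6 was lower (log2 fold change -0.47). Macrophages are rich in lysosomes, and 9 of 20 macrophage and neutrophil genes were called higher and 1 lower (median 1.01), with 0 higher and 4 lower in Bach1 DKO than in WT. With the filter at a minimum count of 30, only 4 of the list were called, all higher in compound mutants. The matrix metalloproteinase gene mmp9 had 24, 32.4, 44.8 and 27.7 CPM in compound mutant pools, against 5.88, 1.87, 3.86 and 6.08 CPM in crkeap1a/b pools. A second one, mmp13a, had 13.8, 16.4, 31.3 and 14.9 CPM in compound mutant pools, against 2.57, 1.87, 3.51 and 2.86 CPM in crkeap1a/b pools, and neither gene overlapped between the groups. The gene ncf1, a subunit of the phagocyte oxidase, had 6.01, 6.09, 4.37 and 5.79 CPM in compound mutant pools, against 3.31, 1.12, 1.76 and 3.22 CPM in crkeap1a/b pools. The gene mfap4.1, from a family used as a macrophage marker, had 5.66, 6.73, 8.37 and 4.96 CPM in compound mutant pools, against 2.94, 1.87, 1.76 and 1.79 CPM in crkeap1a/b pools. The 1 member of the list called lower was of the same family. It had 1.77, 5.45, 6.92 and 7.03 CPM in compound mutant pools, against 10.3, 15.3, 16.1 and 4.3 CPM in crkeap1a/b pools, which overlapped (log2 fold change -1.12). Counts of ncf1 and mfap4.1 were low in crkeap1a/b, at 26 and 23 summed over the 4 pools. In WT pools ncf1 had 8.83, 13.3, 6.86 and 7.60 CPM, all above the compound mutant pools. The summed level of this list was 148 to 217 CPM in compound mutants and 98.3 to 135 CPM in crkeap1a/b, with no member at 0 in both groups. Without editing it was 70.3 to 88.7 CPM in Bach1 DKO and 110 to 245 CPM in WT, so the WT range overlapped that of compound mutants. The part of this list in the lysosomal result was not tested.

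Endoplasmic reticulum chaperone and quality control genes were called higher in 7 of 17 and lower in 1 (median 0.50), with 1 higher and 4 lower without editing, and 5 called without crkeap1a/b replicate 1 and 4 without crkeap1a/b replicate 4. The gene edem1, which acts in the disposal of misfolded glycoproteins, had 54.1, 52.9, 56.4 and 61.6 CPM in compound mutant pools, against 23.2, 25.8, 17.9 and 22.5 CPM in crkeap1a/b pools. ATF4 amino acid stress genes were called in both directions (5 higher and 2 lower of 18). The gene asns, asparagine synthetase, had 19.1, 23.1, 22.2 and 17.8 CPM in compound mutant pools, against 6.98, 15.3, 11.2 and 7.87 CPM in crkeap1a/b pools. The gene sesn2, a stress-induced inhibitor of growth signalling, had 5.66, 8.02, 9.1 and 9.92 CPM in compound mutant pools, against 1.47, 2.24, 3.86 and 0.716 CPM in crkeap1a/b pools, but ddit4, another such inhibitor, was lower (log2 fold change -1.01). Without editing ddit4 was lower as well (log2 fold change -1.35). Heat shock genes divided evenly, 5 higher and 5 lower of 21, against 1 higher and 5 lower in Bach1 DKO than in WT. The cytosolic chaperone gene hsp90ab1 had 5338, 5448, 5294 and 5170.1 CPM in compound mutant pools, against 7954, 8077, 8039 and 9159 CPM in crkeap1a/b pools. It was lower without editing too (log2 fold change -0.87, against -0.64 with editing). The gene hspd1, the mitochondrial chaperonin, had 111, 117, 113 and 118 CPM in compound mutant pools, against 56.2, 63.5, 80.4 and 54.4 CPM in crkeap1a/b pools. S100 calcium-binding genes were called higher in 6 of 15 and lower in none. The gene s100a1 had 36.8, 37.2, 30.6 and 50.8 CPM in compound mutant pools, against 1.1, 4.48, 3.86 and 2.15 CPM in crkeap1a/b pools (log2 fold change 3.80 ± 0.43 SE, adjusted p 2.45e-08), with 0.878, 2.01, 4.02 and 1.33 CPM in Bach1 DKO and 4.78, 4.3, 2.89 and 3.98 CPM in WT (interaction 4.83 ± 0.74 SE, adjusted p 0.000108).

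Genes of lipid and glucose metabolism were counted by list. Of 15 tested cholesterol synthesis genes 10 were called higher and 1 lower (median 0.79), or 6 higher and 1 lower without crkeap1a/b replicate 4, against 1 and 1 in Bach1 DKO compared with WT. The gene cyp51, lanosterol demethylase, had 12.7, 16.7, 16 and 14.9 CPM in compound mutant pools, against 5.51, 3.36, 3.51 and 1.79 CPM in crkeap1a/b pools. The gene ebp, a sterol isomerase, had 18.4, 14.8, 15.3 and 20.3 CPM in compound mutant pools, against 7.35, 3.74, 6.32 and 3.22 CPM in crkeap1a/b pools. The exception, stard4, which encodes a sterol transfer protein, had 13.8, 14.8, 14.6 and 13.6 CPM in compound mutant pools, against 27.6, 34.8, 29.5 and 21.5 CPM in crkeap1a/b pools. Its call was lost without crkeap1a/b replicate 2. Of 26 fatty acid oxidation genes 14 were called higher and 2 lower (median 0.66), and 10 were called in all without crkeap1a/b replicate 1 or without replicate 4. In Bach1 DKO against WT 8 were called higher and 2 lower (median 0.37), and no interaction was called in this list. The long-chain acyl-CoA dehydrogenase gene acadl had 44.2, 53.2, 48.8 and 39.3 CPM in compound mutant pools, against 14, 20.9, 20 and 13.2 CPM in crkeap1a/b pools. The enoyl-CoA isomerase gene eci2 had 10.6, 12.8, 8.74 and 13.2 CPM in compound mutant pools, against 2.57, 0.374, 1.4 and 1.43 CPM in crkeap1a/b pools. The gene cpt1ab, which controls entry of fatty acids into mitochondria, had 15.9, 13.1, 16.7 and 17.8 CPM in compound mutant pools, against 7.72, 7.1, 7.72 and 8.59 CPM in crkeap1a/b pools. Without editing acadl, eci2 and cpt1ab were also called higher (log2 fold changes 0.91, 2.40 and 0.97). The PPAR alpha gene pparaa was lower (27.6, 26.9, 26.2 and 27.3 CPM in compound mutant pools, against 53.7, 49.7, 41.8 and 45.8 CPM in crkeap1a/b pools). Of 9 glucose metabolism genes 2 were called higher and 2 lower (median 0.25). The gene pck1, which encodes the enzyme that commits carbon to gluconeogenesis, had 744, 661, 684 and 675 CPM in compound mutant pools, against 85.3, 107, 137 and 112 CPM in crkeap1a/b pools (log2 fold change 2.66 ± 0.24 SE, adjusted p 2.12e-10) and was also higher in Bach1 DKO than in WT (log2 fold change 1.63). The gene fbp1a, fructose bisphosphatase, was lower (59, 70.9, 57.1 and 75.2 CPM in compound mutant pools, against 159, 126, 159 and 173 CPM in crkeap1a/b pools; log2 fold change -1.24 ± 0.15 SE, adjusted p 1.08e-07), as was pklr, liver pyruvate kinase (78.1, 87.5, 73.2 and 53.7 CPM in compound mutant pools, against 470.5, 170.4, 223 and 409 CPM in crkeap1a/b pools). The gene cyp7a1, the rate-limiting enzyme of bile acid synthesis, had 13.1, 3.21, 5.1 and 5.79 CPM in compound mutant pools, against 52.2, 19.8, 20.4 and 27.9 CPM in crkeap1a/b pools, and was not called in Bach1 DKO against WT (63.7, 34.1, 93.4 and 101 against 34.9, 32.5, 89.5 and 65.9 CPM; interaction -2.59 ± 0.59 SE, adjusted p 0.0108). The gene igfbp1a, a growth factor binding protein of the fasted liver, had 843, 935, 836 and 769.6 CPM in compound mutant pools, against 378, 355, 438 and 338 CPM in crkeap1a/b pools. The growth hormone receptor gene ghrb had 11.3, 13.5, 12.4 and 10.3 CPM in compound mutant pools, against 39.7, 20.2, 30.5 and 37.9 CPM in crkeap1a/b pools. It was also lower without editing (log2 fold change -1.62, against -1.37 with editing). Genes secreted by or marking hepatocytes were called in both directions (5 higher and 6 lower of 31, median -0.02, which turned positive with scaling by library totals). Their summed level was 3919 to 5134 CPM in compound mutants and 4106 to 4823 CPM in crkeap1a/b, which overlap. In Bach1 DKO against WT 3 were called higher and 11 lower (median -0.47), and 3 interactions were called, all positive. The fibrinogen chain gene fga had 163, 229.9, 191 and 223 CPM in compound mutant pools, against 90.1, 81.8, 89.2 and 92.7 CPM in crkeap1a/b pools. The gene ambp, which encodes a secreted liver protein, had 45.6, 54.2, 15.3 and 20.7 CPM in compound mutant pools, against 89, 101, 126 and 99.5 CPM in crkeap1a/b pools. Its log2 fold change was -1.76 with editing and -1.45 without.

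Genes of several tissues were called mostly lower. Of 23 keratins and epidermal transglutaminases 1 was called higher and 11 lower (median -0.66), and their summed level was 1319 to 1794 CPM in compound mutants, 2736 to 3476 CPM in crkeap1a/b, 4958 to 6912 CPM in Bach1 DKO and 5287 to 7727 CPM in WT. The gene krt91 had 307, 264, 183 and 163 CPM in compound mutant pools, against 791, 536, 563 and 654 CPM in crkeap1a/b pools (log2 fold change -1.50 ± 0.21 SE, adjusted p 2.08e-06) and 1386, 1183, 1353 and 1604 CPM in Bach1 DKO against 1933, 1235, 1571 and 1632 CPM in WT, which overlapped (interaction -1.31 ± 0.31 SE, adjusted p 0.0147). The gene krt1-19e had 4.24, 2.89, 2.18 and 1.65 CPM in compound mutant pools, against 22.8, 7.47, 14.4 and 29 CPM in crkeap1a/b pools (log2 fold change -2.56 ± 0.71 SE, adjusted p 0.00575), but was higher in Bach1 DKO pools than in WT pools, at 281, 248, 322 and 472 against 131, 70.8, 119 and 179 CPM (interaction -3.99 ± 0.76 SE, adjusted p 0.00179). Keratin genes are numerous and alike, and a share of their reads may be assigned among copies.

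Exocrine pancreas enzymes were lower in 9 of 16 and higher in 1 (median -0.95), against 1 and 1 in Bach1 DKO compared with WT. The elastase gene cela1.2 had 773, 987, 1035 and 912 CPM in compound mutant pools, against 2926, 2108, 2041 and 3104 CPM in crkeap1a/b pools (log2 fold change -1.44 ± 0.24 SE, adjusted p 2.52e-05). The amylase gene amy2a had 280.3, 239, 442 and 336 CPM in compound mutant pools, against 1079, 693, 744 and 844 CPM in crkeap1a/b pools. The bile salt lipase gene cel.2 had 9.54, 13.8, 41.1 and 28.9 CPM in compound mutant pools, against 101, 61.7, 70.2 and 129 CPM in crkeap1a/b pools. The amylase gene amy2al2 had 20.5, 15.1, 24.4 and 13.6 CPM in compound mutant pools, against 89, 31.4, 90.2 and 128 CPM in crkeap1a/b pools (log2 fold change -2.06 ± 0.36 SE, adjusted p 4.82e-05) and was higher in Bach1 DKO than in WT (51.8, 55.4, 69.3 and 117 against 30.9, 38.3, 11.9 and 35.1 CPM; interaction -3.45 ± 0.50 SE, adjusted p 4.72e-05). Summed, the enzymes had 8731 to 11581 CPM in compound mutants and 15454 to 21708 CPM in crkeap1a/b. Of 16 enterocyte genes 4 were called lower, none higher and 12 were not called, where 14.0% of all genes were called lower. The brush border gene si, sucrase-isomaltase, had 101, 112, 109 and 99.6 CPM in compound mutant pools, against 245, 207, 207 and 275 CPM in crkeap1a/b pools. The peptide transporter gene slc15a1b had 133, 107, 116 and 88.9 CPM in compound mutant pools, against 182, 150.2, 178 and 198 CPM in crkeap1a/b pools.

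Contractile genes of muscle were called lower in 18 of 44 and higher in none (median -0.33), whereas Bach1 DKO against WT gave 15 higher and 5 lower (median 0.37), and 12 interactions were called, all negative. The gene actc1b, cardiac-type actin of larval muscle, had 4324, 4361, 3613 and 4456 CPM in compound mutant pools, against 10887, 9263, 7767 and 10183 CPM in crkeap1a/b pools (log2 fold change -1.18 ± 0.19 SE, adjusted p 1.28e-05). The fast troponin T gene tnnt3a had 33.9, 42.6, 30.2 and 44.6 CPM in compound mutant pools, against 80.5, 71.4, 63.2 and 62.3 CPM in crkeap1a/b pools (log2 fold change -0.88 ± 0.17 SE, adjusted p 0.000182) but 133, 184, 136 and 143 CPM in Bach1 DKO against 71.3, 72.3, 94.9 and 91.2 CPM in WT (log2 fold change 0.85, adjusted p 0.000131; interaction -1.73 ± 0.23 SE, adjusted p 1.71e-05). The fast myosin heavy chain gene myhz1.3 had a log2 fold change of -0.98 with editing and 0.45 without (interaction -1.43 ± 0.21 SE). Collagen chains, the fibres of connective tissue, also differed by editing: 3 of 38 were called higher and 5 lower in compound mutants, and 17 higher and 0 lower in Bach1 DKO than in WT, with 5 negative interactions. Photoreceptor genes were called in both directions (7 higher and 8 lower of 33, median -0.33), against 15 higher and 2 lower without editing (median 0.75). In this list 9 interactions were called, all negative. Among members higher with editing, the rod arrestin gene sagb was higher in both comparisons (log2 fold changes 1.92 and 2.20). So was arr3a, a cone arrestin gene (log2 fold changes 1.69 and 2.10).

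In 2 groups the fall was of like size with and without editing. Lens crystallins and membrane proteins were called lower in 25 of 40 and higher in 1 (median -0.65), and 17 were lower and 1 higher without editing (median -0.55), with 0 interactions called. The beta crystallin gene crybb1l2 had 992, 928, 894 and 1029.6 CPM in compound mutant pools, against 2126, 1728, 1633 and 2059.5 CPM in crkeap1a/b pools. The beaded filament gene bfsp1 had 71.8, 73.4, 91 and 81 CPM in compound mutant pools, against 167, 111, 125 and 156 CPM in crkeap1a/b pools. The exception was crygm2d10, a gamma crystallin gene (189, 180.2, 193 and 231 CPM in compound mutant pools, against 44.5, 46, 59 and 17.2 CPM in crkeap1a/b pools). Cytosolic ribosomal protein genes were called lower in 29 of 67 and higher in 2 (median -0.42), and 29 were lower and 0 higher without editing (median -0.45). The gene rps9 had 1376, 1325, 1377 and 1322 CPM in compound mutant pools, against 2815, 2734, 2551 and 2723 CPM in crkeap1a/b pools. The gene rplp1 had 2479.5, 2423, 2796 and 2836 CPM in compound mutant pools, against 5548, 5158, 5234 and 5139 CPM in crkeap1a/b pools. All compound mutant pools lay below all crkeap1a/b pools for these and 53 of the 67 genes in all, as they did for 17.0% of all genes tested. The summed ribosomal level was 85413 to 90556 CPM in compound mutants and 117242 to 127255 CPM in crkeap1a/b. The neuronal list did not share this pattern. Neuronal and glial genes were lower in 12 of 23 and higher in 2 (median -0.36), or in 8 to 9 when any of the 4 compound mutant pools or crkeap1a/b replicate 4 was left out. Without editing 3 were lower and 5 higher (median 0.02), and 2 interactions were called, both negative. The synaptic vesicle fusion gene snap25a had 345, 327, 337 and 358 CPM in compound mutant pools, against 539.6, 554, 542 and 546 CPM in crkeap1a/b pools. The growth cone gene gap43 had 22.6, 25.3, 24.8 and 25.6 CPM in compound mutant pools, against 50, 50.8, 49.5 and 37.9 CPM in crkeap1a/b pools.

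**Figure D5:**
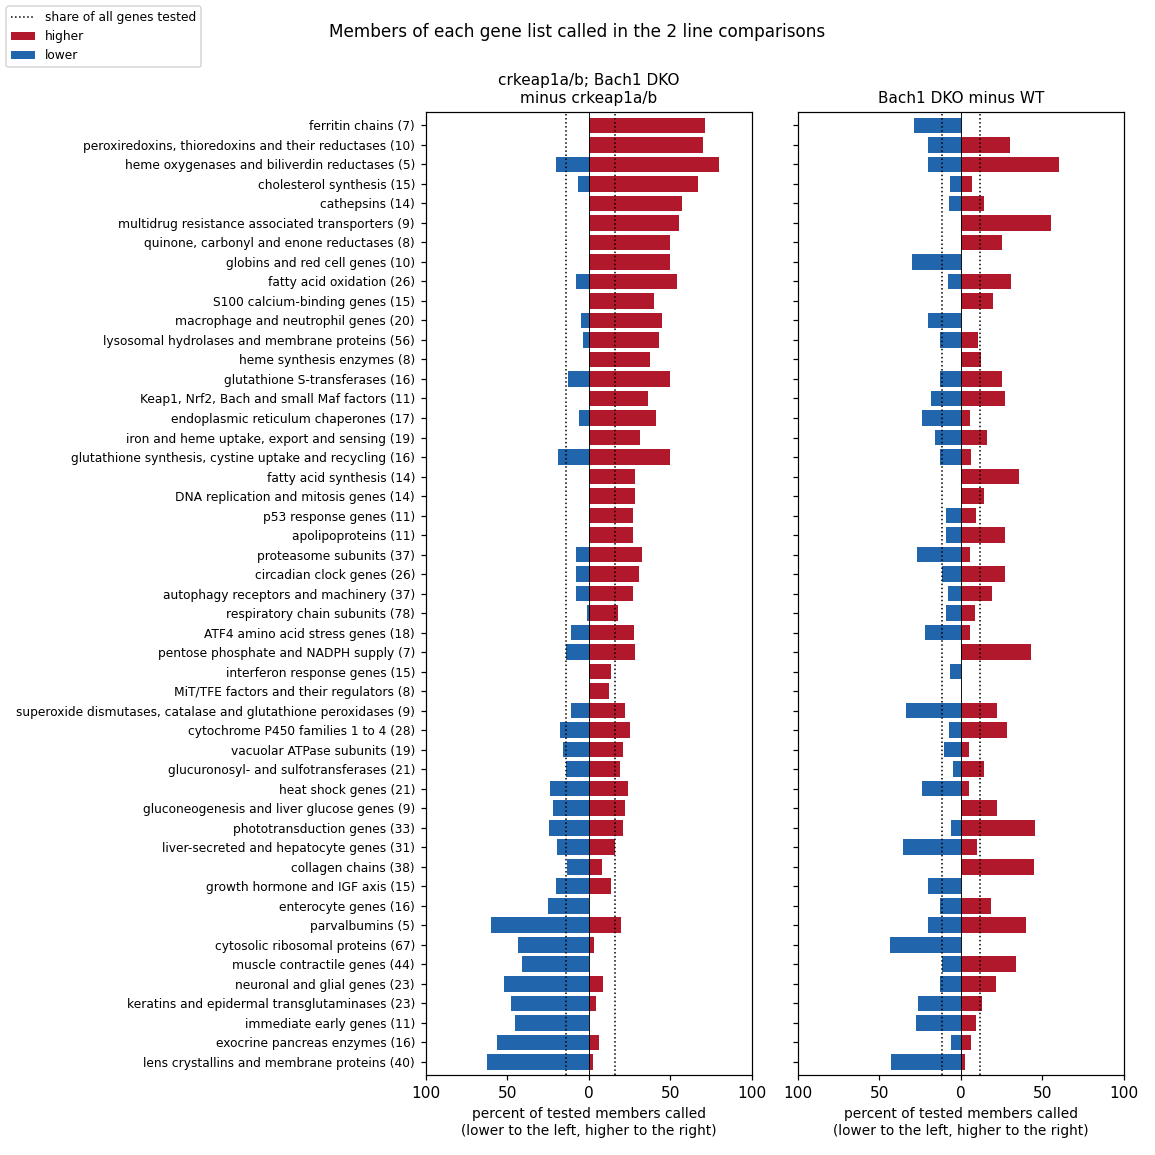
Percent of tested members of each of 49 gene lists (number tested in parentheses) called higher (red, right) or lower (blue, left) in compound mutants minus crkeap1a/b (left panel) and Bach1 DKO minus WT (right panel), with the share of all genes tested called in each direction (dotted lines). Ferritin, thioredoxin, cholesterol synthesis, cathepsin and lysosomal lists extend mostly to the right in the left panel, and lens and ribosomal lists extend to the left in both. The muscle list extends to the left in the left panel and mostly to the right in the right panel. The collagen list lies within the dotted lines on both sides of the left panel and extends to the right in the right panel.

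Immediate early genes were lower in 5 of 11 and higher in none, and 3 were lower and 1 higher without editing. The immediate early gene ier2a had 69.3, 61.6, 99.4 and 69.4 CPM in compound mutant pools, against 161, 117, 176 and 160.0 CPM in crkeap1a/b pools and a like difference without editing (log2 fold change -1.12). Of 26 circadian clock genes 8 were called higher and 2 lower, and 7 higher and 3 lower without editing, with medians of 0.05 and 0.10. The light-induced clock gene per2 had 101, 91.1, 82.6 and 85.6 CPM in compound mutant pools, against 38.6, 34.8, 34.8 and 43 CPM in crkeap1a/b pools and 132, 115, 119 and 115 CPM in Bach1 DKO against 43.4, 40.3, 50.9 and 45.6 CPM in WT. The hour at which each pool was collected is not given in the labels. No interaction was called in either list.

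The other lists are set beside the 15.9% of all genes that were called higher and the 14.0% called lower. Respiratory chain subunits were higher in 14 of 78 and lower in 1 (median 0.03), and fatty acid synthesis genes were higher in 4 of 14 and lower in none, or in 2 without compound mutant replicate 2, crkeap1a/b replicate 1 or crkeap1a/b replicate 4. DNA replication and mitosis genes were higher in 4 of 14 and lower in none, but in 1 without crkeap1a/b replicate 1 and in 2 without compound mutant replicate 1 or 2 or crkeap1a/b replicate 2 or 4. Apolipoproteins were higher in 3 of 11, p53 response genes in 3 of 11 and interferon response genes in 2 of 15, with none lower. The interferon count was 1 without compound mutant replicate 1 or crkeap1a/b replicate 2 or 3. The gene apoa1b, an apolipoprotein of high-density lipoprotein, had 2550.2, 2728, 1310.4 and 1684 CPM in compound mutant pools, against 625, 743, 1083 and 480.3 CPM in crkeap1a/b pools. Genes of the growth hormone and IGF axis were called in both directions, 2 higher and 3 lower of 15. Parvalbumins, calcium buffers of muscle and neurons, were lower in 3 of 5 and higher in 1, pvalb7. The gene pvalb1 had 3286, 5448, 2940.3 and 5755 CPM in compound mutant pools, against 8003, 9508, 6459.8 and 6188 CPM in crkeap1a/b pools.

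Other genes with large interactions were of mixed kind. Among positive ones, cfhl2, a complement factor H-like gene, had 30, 20.5, 28.8 and 28.9 CPM in compound mutant pools, against 3.31, 7.85, 11.9 and 3.22 CPM in crkeap1a/b pools and no more than 2.41 CPM in any Bach1 DKO pool or 3.13 CPM in any WT pool (interaction 3.40 ± 0.86 SE, adjusted p 0.0232). The gene cyb561a3b had no more than 1.2 CPM in any Bach1 DKO pool and 1.1 CPM in any WT pool (interaction 3.87 ± 0.94 SE, adjusted p 0.0168). Among negative ones, zgc:136930 had 14.8, 15.1, 4 and 8.68 CPM in compound mutant pools, against 128, 31.4, 53.4 and 132 CPM in crkeap1a/b pools and 287, 273, 346 and 445 CPM in Bach1 DKO against 307, 174, 274 and 373 CPM in WT (interaction -3.19 ± 0.56 SE, adjusted p 0.000931). The others were si:dkey-183i3.5 (log2 interaction -2.47), si:ch211-217a12.1 (-2.39) and ompa, an olfactory marker protein gene (-2.58). For pgd the fitted interaction was -5.85 ± 1.52 SE (adjusted p 0.0268), a value that rests on groups at or near 0 counts and was not called by edgeR or DESeq2. Of the 39 genes named here with a called interaction, bach1a, cfhl2, cyb561a3b, gap43, hbae1.1, igfbp1a, lamp1a, ncf1, ompa, pgd, pklr and tfr1b each lost that call in at least 1 fit that left out a pool.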

How the data were processed

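RNA of whole zebrafish larvae was measured in 32 pools, 4 in each of 8 groups taken from the sample titles, of which compound mutants and crkeap1a/b form the comparison and Bach1 DKO and WT its counterpart without editing. The authors deposited 1 table of raw read counts per gene, and the deposited counts were neither normalized nor pooled. Per the labels and the study's methods, reads were checked and trimmed with FastQC 0.72 and cutadapt 1.16, aligned to danRer11 with STAR 2.7.5b and counted with featureCounts 1.6.3, and the study tested genes with limma 3.40.6. How reads with several matches were treated is not given in the sources used here.

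Rows without a gene ID, 786 of 16825, held 30.6 to 46.8% of the counts of a library and were left out of library sizes and tests. IDs were named from a RefSeq table of assembly GRCz12tu (15617 of 16039 matched), which also gave the order of neighbouring genes; its coordinates were not used because the build differs. Counts were tested with limma-voom (limma 3.58.1, edgeR 4.0.16, R 4.3.3) with TMM scaling, filterByExpr at a minimum count of 10 and 8 group means over all 32 libraries, with Benjamini-Hochberg adjustment over 14108 genes and calls at an adjusted p under 0.05, two-sided. CPM shown are counts over the TMM-scaled library total of the genes tested. Floors in CPM and the count ratio were taken over totals in rows with an ID, without TMM scaling. The TMM factors were 1.17 to 1.21 in compound mutants and 1.09 to 1.14 in crkeap1a/b. Intervals and floors cover counting error only. Alternatives were edgeR, DESeq2 (1.42.0), other scalings and filters, quality weights, a replicate block, fewer groups and leaving out each pool; keeping rows without an ID was added after the data were seen. On simulated counts with the depth and spread of these libraries (13579 genes), the main comparison called 17.9, 62.7 and 95.5% of genes changed by 1.5, 2 and 4-fold. Only 67, 67 and 66 genes were changed, all with a mean of at least 5 CPM. These are far fewer than the genes called in the data, so the shares hold for that simulation and do not give the power of this comparison. Named genes were the targeted genes, the 12 largest rises and falls and the 8 largest interactions each way among called genes with a symbol (not a LOC or GeneID placeholder), no overlap and a mean of at least 5 CPM, up to 4 members with the smallest p and the main exception of each of 49 lists, and genes at or under 3 counts in 1 group; the text names some of these. The groups, the lists and these rules were chosen with earlier results of these data known. The result of 1 further gene is not reported here.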

Additional observations from a re-analysis of the deposited data

Results flagged for a closer look

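In 18 of 318 groups of 4 pools examined for the named genes, 1 pool lay far from the other 3, and chance alone flags about 1 in 20 groups. In compound mutants, replicate 3 was apart for keap1a (137 CPM), actc1b (3613 CPM), mmp13a (31.3 CPM), prdx6 (89.9 CPM) and tfr1b (88.8 CPM), replicate 4 for hmox1a (133 CPM), npc2.1 (93.4 CPM) and ddit4 (53.3 CPM), replicate 2 for cfhl2 (20.5 CPM) and replicate 1 for fthl28 (2751 CPM). In crkeap1a/b, replicate 2 was apart for cyb561a3b (32.1 CPM), dennd4a (13.1 CPM) and fthl29 (39.2 CPM), replicate 3 for myhz1.3 (665 CPM) and npc2.1 (35.5 CPM), and replicate 4 for gap43 (37.9 CPM) and hsp90ab1 (9159 CPM). Bach1 DKO replicate 2 was apart for bach1a (8.43 CPM).

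The difference between the lines depended on keap1a/b editing for 39 genes named in the report, by the interaction in limma-voom. Positive interactions on the log2 scale were found for hmox1a (4.96), s100a1 (4.83), si:ch211-202h22.7 (3.99), cyb561a3b (3.87), fthl28 (3.58), fthl29 (3.41), cfhl2 (3.40), mfap4.1 (3.11), fuca1.1 (2.28), hmbsb (2.18), fthl31 (2.15), blvrb (1.95), slc4a1a (1.95), fthl27 (1.92), ncf1 (1.86), fga (1.65), hbae1.1 (1.56), bach1b (1.54), ctsba (1.50), bach1a (1.41), abcb6a (1.41), gsto2 (1.24), tfr1b (1.06), igfbp1a (1.04) and lamp1a (0.90). Negative ones were found for pgd (-5.85), krt1-19e (-3.99), amy2al2 (-3.45), zgc:136930 (-3.19), cyp7a1 (-2.59), ompa (-2.58), si:dkey-183i3.5 (-2.47), si:ch211-217a12.1 (-2.39), tnnt3a (-1.73), pklr (-1.72), myhz1.3 (-1.43), krt91 (-1.31), fbp1a (-1.09) and gap43 (-0.87).

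Rows without a gene ID were not used in the report. When they were kept, 564 of them could be tested between compound mutants and crkeap1a/b, and 158 (28.0%) were called, 66 higher and 92 lower.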

How the results depend on the processing

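The main comparison gave 3580 to 5403 calls under other tools (edgeR 4014, DESeq2 4124), scalings, filters, weights and the 2 groups fitted alone, and 3406 to 3923 with 1 pool left out. Stricter thresholds gave 2585 at an adjusted p under 0.01 and 1555 at an absolute log2 fold change of at least 1. The interaction depended most on the fit: it gave 865 calls with sample quality weights, 1011 with the 4 groups fitted alone, 105 at an adjusted p under 0.01, and 210 to 458 with 1 pool left out, against 386. The cause was not tested. Bach1 DKO minus WT gave 1760 calls at an adjusted p under 0.01, 1255 at an absolute log2 fold change of at least 1 and 2464 to 3119 with 1 pool left out, against 3304. Of 127 named and called genes 122 kept their direction and call under every alternative; bach1a, hmox2b, stard4, tfe3a and tktb did not. Of 39 named interactions 27 did; those of bach1a, cfhl2, cyb561a3b, gap43, hbae1.1, igfbp1a, lamp1a, ncf1, ompa, pgd, pklr and tfr1b did not. None changed direction. Depth limits genes near the floor of 3 counts. On simulated counts the interaction test called 31.3% of genes changed by 2-fold and 81.8% of those changed by 4-fold (13579 genes).

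Compound mutant and crkeap1a/b pools with the same replicate number did not deviate together (correlations of -0.023 to 0.006), so no pairing by number was seen between these groups. Whether pools of the same number shared a clutch or batch was not tested. Between compound mutants and Bach1 DKO the same-number correlations were 0.146, 0.156, 0.137 and 0.0752, and 2 of the 4 compound mutant pools correlated best with their own number. Between crkeap1a/b and WT they were 0.0076, -0.0565, 0.0141 and 0.124, and only crkeap1a/b replicate 4 correlated best with its own number. Between Bach1 DKO and WT they were 0.0079, 0.0715, 0.0084 and 0.0181, and only Bach1 DKO replicate 2 did so. A fit that added a replicate block called 4015 genes in the main comparison (2090 higher, 1925 lower), 366 for the interaction and 3199 in Bach1 DKO minus WT.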
